A study of Chlamydomonas reinhardtii with 6 samples.

Results

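Expression under rotifer predation was compared between 2 morphotypes of the green alga Chlamydomonas reinhardtii, cell groups and single cells, with attention to genes whose difference was absent or reversed without the predator. A gene was a member when the cell group and single cell libraries of the rotifer treatment differed at least 2-fold, while in the control pair and in the low-nitrogen pair the difference in the same direction stayed under 1.5-fold or ran the other way. Of the 14136 genes kept after a filter on low counts, 670 were members. The same difference was taken in every pair, cell groups minus single cells on the log2 scale of CPM (read counts relative to library size) plus 0.5, with libraries scaled by trimmed means of M-values (TMM).

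The 6 RNA-seq libraries comprised 1 library for each morphotype in each of the rotifer, control and low-nitrogen treatments. The cell groups came from 1 isolate of a line evolved with predators and growing as groups without single cells, and the single cells from 1 isolate, mostly motile, of a line evolved without predators. Both lines were started from strain cc1009, so morphotype cannot be told apart from the isolate or from its selection history. The algae grew in chemostats in COOL80 medium (80 µM nitrogen) for 10 days and were harvested after 5 more days with the rotifer Brachionus calyciflorus added, with no change (control), or with the supply lowered to 40 µM nitrogen. RNA was pooled by treatment before sequencing. With 1 library on each side, no difference here has a replicate check and no p-value was computed. The intervals below are exact 95% Clopper-Pearson intervals of the ratio of 2 counts, and they cover counting error only.

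C. reinhardtii is a flagellated alga that divides by multiple fission inside the mother cell wall, from which the daughters normally hatch and swim apart. Cell groups arise when daughters stay attached. The wall and the matrix around the cells are built of hydroxyproline-rich glycoproteins, the pherophorins among them. Rotifers such as B. calyciflorus are filter feeders that take in small suspended cells, so particle size bears on whether a cell is eaten. The deposited tables give gene identifiers without names, and the RefSeq gene table of assembly Chlamydomonas_reinhardtii_v5.5 used here has a symbol other than the locus tag for 0 genes. Genes are therefore given by identifier and position, lists of pathway or cell state markers could not be matched, and a role is stated for a gene where the study gives one.

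Counts on genes came to 5453218 in the cell group and 6275095 in the single cell rotifer library, the smallest totals of the 6, which reached 9054895. The study reported potential contamination of the rotifer samples, of whose reads a higher share did not map to the Chlamydomonas genome. Whether this has a part in the rotifer differences was not tested. A floor of 3 counts stood at 0.55 CPM in cell groups and 0.478 CPM in single cells under rotifers, on library totals without TMM scaling. The labels were compared with genes silent in 1 isolate. One gene had at least 50 counts in each cell group library and 0 in each single cell library, and 4 genes showed the opposite. In these libraries of whole cultures, fewer cells in a given state and less RNA per cell cannot be told apart.

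Under rotifers 3671 genes (26.0% of those kept) differed at least 2-fold between the morphotypes. Cell groups had the higher level in 2116 of them (15% of those kept) and the lower level in 1555 (11.0%). Most of these differences were also present at 1.5-fold or more in another treatment, and the 670 members made up 4.74% of the genes kept and 18.3% of the genes at least 2-fold different under rotifers. The same rule applied with the control pair in place of the rotifer pair gave 1366 genes (9.66% of those kept, 33.9% of its 2-fold genes), and with the low-nitrogen pair 729 genes (5.16% and 19.3%). At this limit the rotifer pair thus had fewer genes of its own than either other pair. At a limit of 4-fold the rotifer pair held 47 such genes (0.332%), the control pair 252 (1.78%) and the low-nitrogen pair 45 (0.318%). The low-nitrogen and rotifer counts at 4-fold differed by 2 genes.

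**Figure D1:**
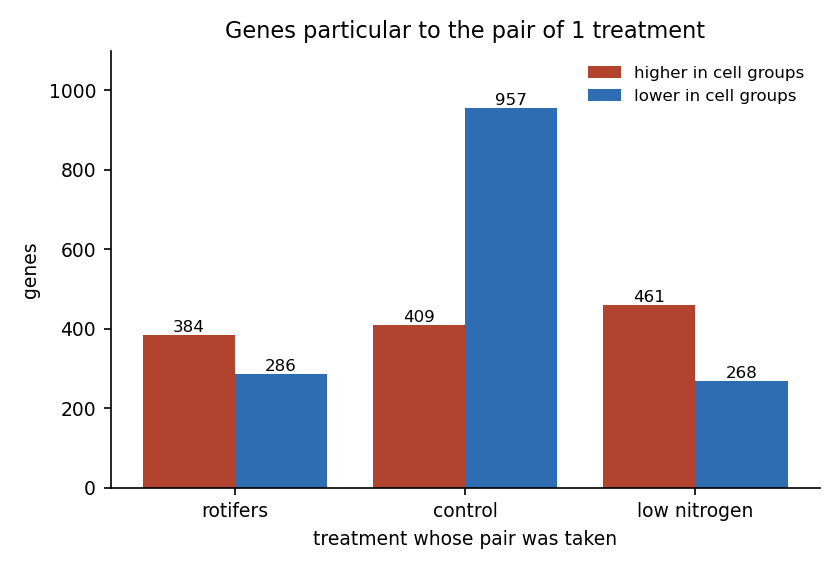
Number of genes at least 2-fold different between cell groups and single cells in 1 treatment and under 1.5-fold or reversed in the other pairs, by direction. The rotifer pair has 384 genes higher and 286 lower in cell groups, against 409 and 957 in the control pair and 461 and 268 in the low-nitrogen pair.

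Cell groups had the higher level in 384 members (2.72% of the genes kept) and the lower level in 286 (2.02%), so that 57.3% of members were higher. The split followed the scaling of the libraries: it was 49.3% with DESeq2 size factors and 70.9% with library totals alone, and no direction is read from it. The median difference of the members higher in cell groups was 1.26 on the log2 scale under rotifers, -0.20 in control and 0.11 in low nitrogen, and that of the members lower in cell groups was -1.20, 0.04 and -0.04. The rule fixed these signs. Over all genes kept the median difference was 0.045 under rotifers, -0.012 in control and 0.020 in low nitrogen. Just inside the 2-fold limit lay Cre09.g394050 with 38 counts in cell groups and 19 in single cells under rotifers, and just outside it Cre12.g493550 with 64 and 33 counts.

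**Figure D2:**
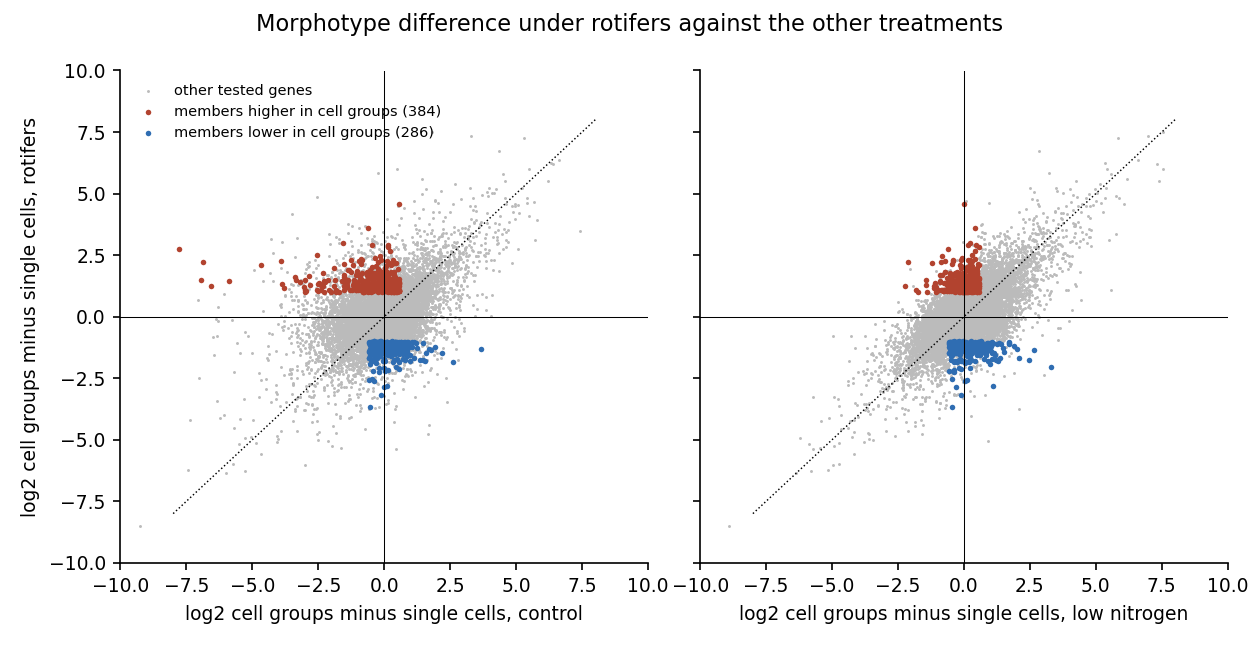
Morphotype difference under rotifers (vertical axis) against that in control (left) and in low nitrogen (right), all as log2 cell groups minus single cells. Each point is a gene, the dotted line marks equal differences, and the 384 members higher and 286 members lower in cell groups are coloured. Members reach further to the left in the control panel than in the low-nitrogen panel.

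In members the single cell rotifer library stood at an end of the 6 more often than the cell group rotifer library. The same order held over all genes kept. Because the rule used both rotifer libraries, it favoured such ends, and the shares over all genes are no test of the members. Of the 384 members higher in cell groups, the single cell rotifer library was the lowest of the 6 libraries for 314, and the cell group rotifer library the highest for 162. Over all genes kept, the single cell rotifer library was lowest for 22.1% and the cell group rotifer library highest for 13.3%. Of the 286 members lower in cell groups, the single cell rotifer library was the highest for 227 and the cell group rotifer library the lowest for 126, against 20.0% and 12% over all genes kept. In 198 members both rotifer libraries stood at opposite ends of the 6.

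Each morphotype was then set against its own mean of control and low nitrogen. The members higher in cell groups had a median log2 departure under rotifers of 0.46 in cell groups and -1.03 in single cells, and those lower in cell groups of -0.43 in cell groups and 0.95 in single cells. The single cells departed more than the cell groups in 487 of 670 members (72.7%), whereas they did so in 62.4% of all genes kept. With a limit of 1.5-fold, 196 of the members higher in cell groups were down in single cells while cell groups stayed within the limit. A further 109 were up in cell groups and down in single cells, and 54 were up in cell groups while single cells stayed within it. For the members lower in cell groups, 157 were up in single cells alone, 44 were down in cell groups and up in single cells, and 59 were down in cell groups alone. The remaining 25 and 26 members stayed within the limit or moved the same way in both morphotypes. These counts describe the members, since the rule used the rotifer pair.

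**Figure D3:**
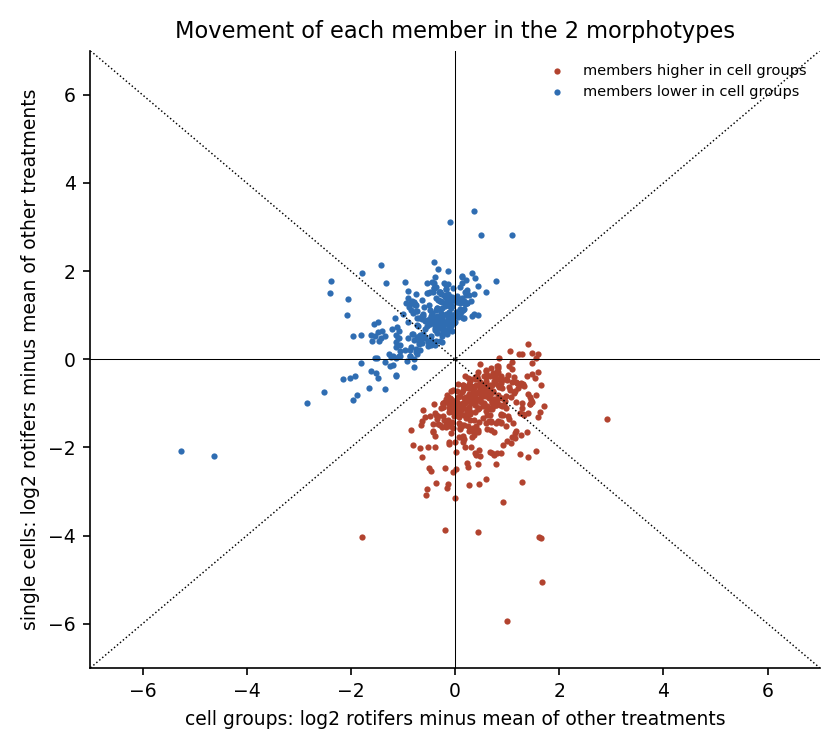
Departure of each of the 670 members under rotifers from the mean of the other treatments, in cell groups (horizontal axis) and in single cells (vertical axis), on the log2 scale. Points nearer the vertical axis moved mainly in single cells. The dotted lines mark equal size. The 2 members at the far left are Cre09.g410950 and Cre09.g411050.

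Within cell groups, the lowest levels under rotifers relative to the other treatments were found at neighbouring genes on chromosome 9. Cre09.g410950 (chromosome 9, 6998940 to 7006736) had 23.5 CPM under rotifers, 971 in control and 870 in low nitrogen in cell groups, against 309, 1410 and 1200 CPM in single cells. Both morphotypes were low under rotifers, and the cell group library stood far below the others. Single cells exceeded cell groups 13.1-fold under rotifers (interval 10.9 to 15.9, from 1732 and 123 counts), a log2 difference of -3.68 against -0.54 in control and -0.47 in low nitrogen. Next to it Cre09.g411050 (7009624 to 7017965) had 8.04, 181 and 246 CPM in cell groups, against 51.5, 238 and 237 CPM in single cells, and the rotifer difference was 6.41-fold (4.62 to 9.08).

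Another 3 nearby genes moved in the same way and missed membership because the low side of cell groups already showed in the other pairs. Cre09.g410750 (6978922 to 6984869) had 18.8 CPM under rotifers, 779 in control and 761 in low nitrogen in cell groups, against 261, 1170 and 1470 CPM in single cells. Its log2 difference was -3.77 under rotifers, -0.59 in control, at the 1.5-fold limit, and -0.95 in low nitrogen. Cre09.g410850 (6991287 to 6995219) had 85.2, 2380 and 2010 CPM in cell groups, against 1030, 4490 and 3210 CPM in single cells. Cre09.g410900 (6995340 to 6997448) had 56.4, 1660 and 1790 CPM in cell groups, against 755, 3090 and 2960 CPM in single cells. In each of these genes both rotifer libraries lay below the 4 others, with the cell groups lowest.

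Relative to the mean of control and low nitrogen, the 5 genes were 25.8-fold to 41.1-fold lower under rotifers in cell groups and 3.75-fold to 5.06-fold lower in single cells. By the log2 departure used for the members above, the 5 genes held ranks 1 to 5 of the 14136 genes in cell groups. In single cells they held ranks between 141 and 287. Together they took 0.0184% of the counts in the cell group rotifer library, 0.568% in control and 0.631% in low nitrogen, against 0.215%, 1.11% and 0.928% in single cells. The gene lying between them, Cre09.g410800 (6986662 to 6990589), was also lower under rotifers, by 3.28-fold in cell groups and 10.2-fold in single cells. Unlike the 5 genes, it had the higher rotifer level in cell groups. It had 89.2 CPM under rotifers, 375 in control and 209 in low nitrogen in cell groups, against 24.6, 59.6 and 441 CPM in single cells. The genes on either side, Cre09.g410700 and Cre09.g411100, had log2 differences under rotifers of -0.87 and -0.19. These 8 genes were chosen after their values were seen.

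**Figure D4:**
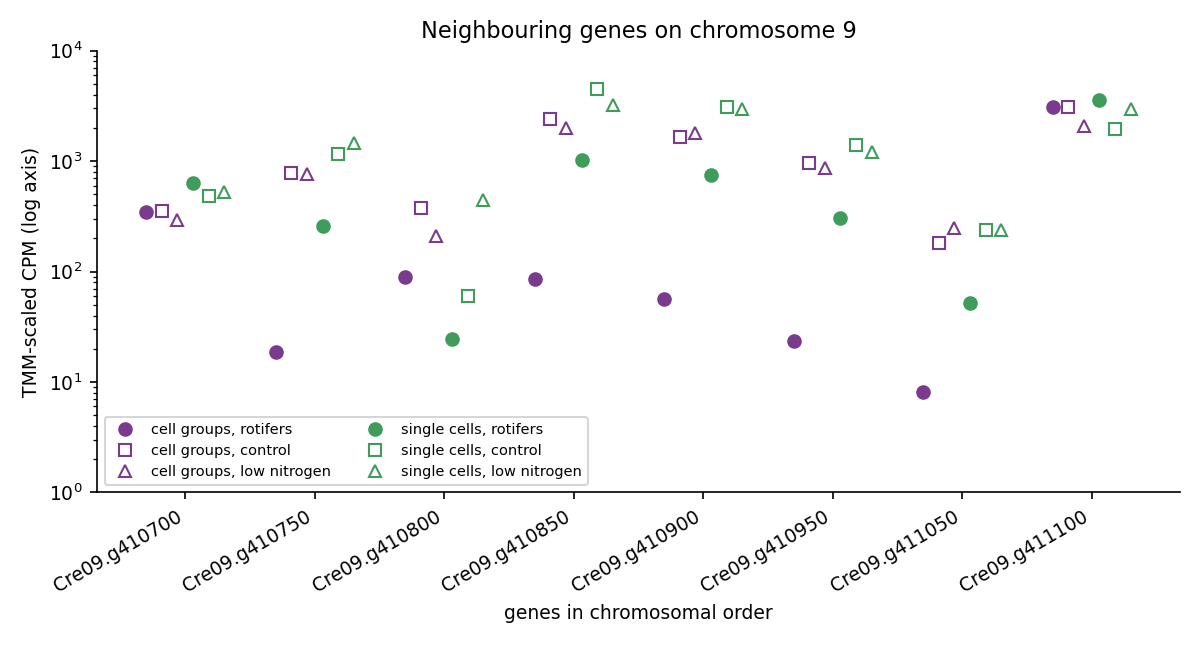
TMM-scaled CPM (log axis) of neighbouring genes on chromosome 9 in the 6 libraries, in chromosomal order. Filled circles are the rotifer libraries. In 5 genes the cell group rotifer library lies at 8.04 to 85.2 CPM, below the single cell rotifer library and the 4 other libraries, while Cre09.g410700 and Cre09.g411100 show no such gap.

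In other strong members that were lower in cell groups, single cells had their highest level under rotifers. Strong members were those at least 4-fold different, with at least 10 CPM in a rotifer library and a counting bound of at least 2-fold, and 15 members met this, 7 lower and 8 higher in cell groups. Cre14.g634279 (chromosome 14, 4144686 to 4147259) had 409 CPM under rotifers, 601 in control and 1050 in low nitrogen in cell groups, against 3000, 610 and 1310 CPM in single cells. The single cell rotifer library was the highest and the cell group rotifer library the lowest of the 6, and the difference was 7.34-fold (7.01 to 7.68). The control pair of this gene differed by -0.02 and the low-nitrogen pair by -0.32 on the log2 scale.

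Cre12.g536950 (chromosome 12, 6248849 to 6256260) had 11.3, 27.8 and 37.6 CPM in cell groups under rotifers, in control and in low nitrogen, against 68.9, 41.6 and 34.7 CPM in single cells, a rotifer difference of 6.11-fold (4.63 to 8.17). Cre10.g423550 (chromosome 10, 830261 to 835431) had 19.1, 21.6 and 50.5 CPM in cell groups, against 86.9, 19.5 and 66.0 CPM in single cells (4.54-fold, 3.66 to 5.69). For Cre16.g675550 (chromosome 16, 6153045 to 6154785) the values were 6.51, 7.34 and 2.65 CPM in cell groups, against 29.7, 4.75 and 2.94 CPM in single cells (4.57-fold, 3.15 to 6.82). Single cells under rotifers thus had the highest value of the 6 libraries for these genes. The last of the 7, Cre08.g358751 (chromosome 8, 479368 to 486943), had 13 counts in cell groups and 68 in single cells under rotifers and 25 to 35 counts in the 4 other libraries.

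The strong members higher in cell groups were mostly low in the single cell rotifer library. Cre03.g192050 (chromosome 3, 6157033 to 6160982) had 164 CPM under rotifers, 201 in control and 63.0 in low nitrogen in cell groups, against 39.0, 189 and 51.2 CPM in single cells. The single cell rotifer library was the lowest of the 6, and cell groups exceeded it 4.20-fold (3.62 to 4.90). Cre07.g336800 (chromosome 7, 3611516 to 3613640) had 134, 158 and 15.9 CPM in cell groups, against 28.9, 122 and 37.6 CPM in single cells. Its log2 difference was 2.19 under rotifers, 0.37 in control and -1.21 in low nitrogen, so the pair turned round between rotifers and low nitrogen.

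Cre02.g107256 (chromosome 2, 5375217 to 5378267) had 38.5, 50.7 and 20.2 CPM in cell groups, against 7.66, 99.6 and 33.7 CPM in single cells, a rotifer difference of 5.02-fold (3.60 to 7.15). Cre09.g387200 (chromosome 9, 3057490 to 3065785) had 14.2, 13.1 and 8.55 CPM in cell groups, against 2.49, 10.2 and 7.30 CPM in single cells (5.68-fold, 3.18 to 10.9). Both had their lowest value in single cells under rotifers. Cre03.g183600 (chromosome 3, 5285443 to 5288398) had 13.2, 9.74 and 9.28 CPM in cell groups, against 2.67, 8.05 and 7.89 CPM in single cells. Since it overlaps Cre03.g183550 and the strand setting of the counting was not stated, reads of the pair cannot be told apart.

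Cre09.g414416 and Cre05.g239250 had their highest level in cell groups under rotifers and their lowest in single cells under rotifers. The same held for Cre03.g183600 and Cre09.g387200. Cre09.g414416 (chromosome 9, 7570418 to 7575509) had the largest difference of all members, 4.56 on the log2 scale, with 81, 27 and 5 counts in cell groups under rotifers, in control and in low nitrogen, against 1, 22 and 5 counts in single cells. The interval of its fold ran from 15.2 to 3480, since it rests on 1 count in single cells. Cre05.g239250 (chromosome 5, 3128116 to 3138417) had 10.1, 3.74 and 3.37 CPM in cell groups, against 2.14, 5.37 and 3.06 CPM in single cells. Of the 8 strong members higher in cell groups, Cre17.g735550 (chromosome 17, 5178500 to 5184399) differed most between the pairs. Cell groups had 10.9, 4.54 and 6.63 CPM, against 2.14, 127 and 4.36 CPM in single cells. The single cell control library was far above the other 5, and the log2 difference was 2.11 under rotifers and -4.67 in control.

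**Figure D5:**
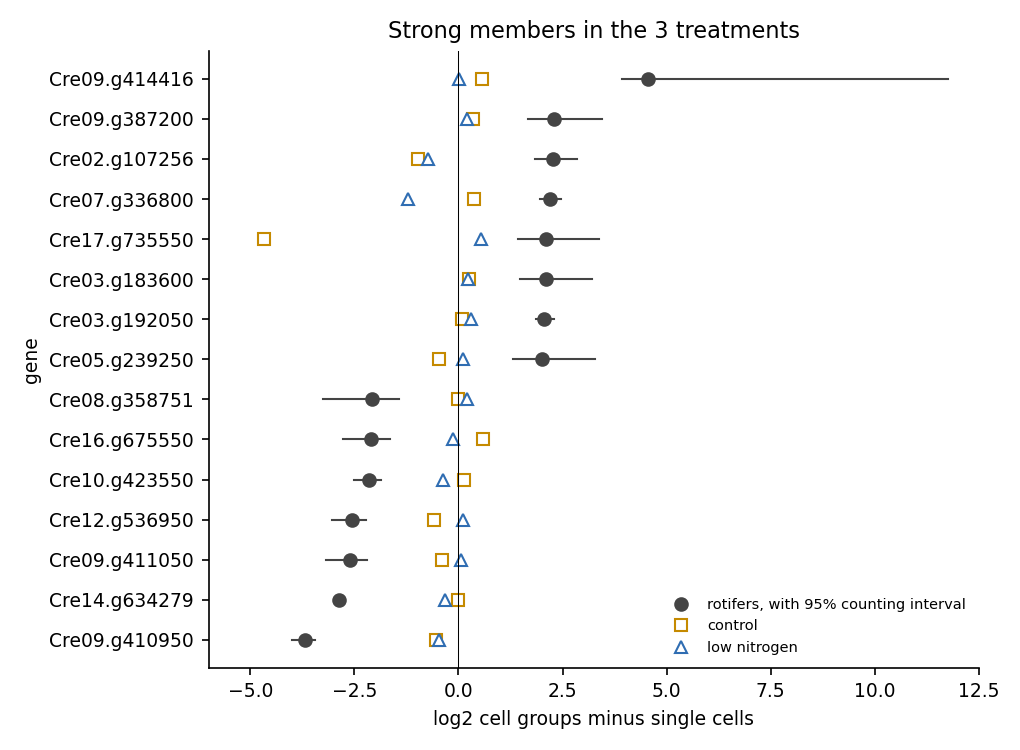
Morphotype difference (log2 cell groups minus single cells) of the 15 strong members under rotifers, with the exact 95% counting interval as a bar, and in control and low nitrogen. The rotifer values lie beyond 2 on either side, and Cre17.g735550 in control at -4.67 is the largest reversal shown.

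Of the 10 most abundant members by mean level, Cre14.g634279 and Cre09.g410950 were among the strong members. Cre16.g687700 (chromosome 16, 4613200 to 4617346) had 311 CPM under rotifers, 429 in control and 185 in low nitrogen in cell groups, against 112, 670 and 207 CPM in single cells, and cell groups were higher under rotifers alone (log2 difference 1.47). Cre03.g144947 (chromosome 3, 415122 to 420981) had 456, 479 and 229 CPM in cell groups, against 120, 335 and 199 CPM in single cells (1.92). In both genes the single cell rotifer library was the lowest of the 6. Among members lower in cell groups, Cre13.g584200 (chromosome 13, 2991064 to 2999852) had 261, 164 and 242 CPM in cell groups, against 658, 131 and 256 CPM in single cells (-1.33). Cre06.g309000 (chromosome 6, 8604782 to 8607670) had 190, 175 and 123 CPM in cell groups, against 680, 28.6 and 148 CPM in single cells. Its cell group values spanned less than its single cell values, and the log2 difference was -1.84 under rotifers, 2.60 in control and -0.26 in low nitrogen.

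In 416 members the difference was absent in both other pairs, under 1.5-fold either way. It was reversed by at least 1.5-fold in control alone in 143, in low nitrogen alone in 76 and in both in 35. In members reversed in control, the single cell control library often stood at an end of the 6. Of the 125 such members that were higher in cell groups under rotifers, it was the highest for 96. Of the 53 that were lower, this library was the lowest for 40. It was the highest for 23.5% and the lowest for 20.3% of all genes kept. Of the 67 members lower in cell groups under rotifers and reversed in low nitrogen, the single cell low-nitrogen library was the lowest for 42, and it was the lowest for 14.6% of all genes kept. Of the 44 higher in cell groups and reversed in low nitrogen, it was the highest for 4, and the cell group low-nitrogen library was the lowest for 11. Reversed members were chosen on the values of these libraries, so the shares over all genes kept are no test of them. The part of single libraries in these reversals was not tested. With the control pair left out of the rule, 1107 genes were particular to rotifers against low nitrogen.

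A reversal of at least 2-fold in both other pairs was found in 14 members. The one with the largest counting bound, 2.89-fold, was Cre09.g397850 (chromosome 9, 1530039 to 1537130), which had 25.8 CPM under rotifers, 34.8 in control and 21.7 in low nitrogen in cell groups, against 90.3, 11.6 and 8.48 CPM in single cells. The cell groups stayed between 21.7 and 34.8 CPM, and the single cell rotifer library stood above the 5 others. Its log2 difference was -1.79 under rotifers, 1.55 in control and 1.31 in low nitrogen. Cre14.g623650 (chromosome 14, 2323614 to 2329089) ran the other way, with 59.3, 27.4 and 27.6 CPM in cell groups, against 29.0, 135 and 74.3 CPM in single cells. Its difference was 1.02 under rotifers, -2.28 in control and -1.41 in low nitrogen, with cell groups at their highest and single cells at their lowest under rotifers.

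A pair of adjacent genes on chromosome 8 were reversed together. Cre08.g365100 (1562184 to 1564893) had 31 counts under rotifers, 5 in control and 26 in low nitrogen in cell groups, against 10, 1402 and 79 counts in single cells. Cre08.g365150 (1566104 to 1569475) had 14, 3 and 5 counts in cell groups, against 1, 1028 and 36 counts in single cells. The single cell control library was high for both, and the rotifer difference rested on few counts (3.33-fold with an interval of 1.59 to 7.61, and 15-fold with 2.29 to 636). Cre07.g343050 (chromosome 7, 4424365 to 4425551) had 27, 68 and 195 counts in cell groups, against 78, 22 and 28 counts in single cells. Cre02.g084176 (chromosome 2, 1508311 to 1508852) had 2, 11 and 35 counts in cell groups, against 14, 2 and 3 counts in single cells.

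The study listed genes in which the isolates of 1 morphotype shared an amino acid change, and these were looked up among the members. Of 19 such genes of the cell group isolates 17 passed the filter, 4 differed at least 2-fold under rotifers and 1 was a member, the reversed gene Cre09.g397850. Of 9 such genes of the single cell isolates 7 passed, 2 differed at least 2-fold and 1 was a member, Cre01.g005701 (chromosome 1, 1003567 to 1007127). It had 51 counts under rotifers, 107 in control and 74 in low nitrogen in cell groups, against 2, 213 and 56 counts in single cells. The single cell rotifer library was the lowest of the 6, and cell groups exceeded it 27.4-fold (7.20 to 232). Over all genes kept, 26.0% differed at least 2-fold under rotifers and 4.74% were members. The lists are short and hold 1 member each, so no result about the variant genes is read from them.

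The study gives a role for a few genes. The pherophorin gene Cre01.g049826, encoding an extracellular matrix glycoprotein with a DUF3707 domain, was higher in cell groups in every treatment, by 1.74 under rotifers, 2.14 in control and 1.91 in low nitrogen on the log2 scale. It was therefore no member. For the variants of interest the study reported no significant expression difference between the morphotypes. The other gene that the study assigns to DUF3707, Cre06.g290676, and the glycoprotein gene Cre10.g431050 did not pass the filter on low counts. Under rotifers, in control and in low nitrogen they differed by 1.54, -0.18 and 1.40, and by 0.07, -1.38 and 0.91. Cre10.g452800, related to the response to CO2 stress, had 21.0 CPM under rotifers, 20.0 in control and 35.8 in low nitrogen in cell groups, against 251, 19.3 and 108 CPM in single cells. The difference was -3.55 under rotifers and 0.05 in control, but -1.58 in low nitrogen, so it failed the rule on the low-nitrogen pair. Cre12.g491600 and Cre06.g266300, related to nutrient uptake and to the viscosity of the cytosol, differed by 0.29 and 0.36 under rotifers.

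The members were spread over the genome. Of 666 members placed on the 17 chromosomes, 33 (4.95%) had an adjacent kept gene that was a member in the same direction, in 16 runs, and the longest run held 3 genes. Members higher and lower in cell groups made up 2.72% and 2.02% of the genes kept. No background for neighbours was computed, so the runs are given as description only. The share of kept genes that were members ranged between 2.89% on chromosome 10 and 6.36% on chromosome 1. The longest run, on chromosome 12, comprised Cre12.g507909, Cre12.g507872 and Cre12.g507850 (2257933 to 2289550), with log2 differences under rotifers of 1.27, 1.54 and 1.01 and rotifer levels of at most 11.3 CPM. On chromosome 9, Cre09.g390578 and Cre09.g390615 (3658278 to 3672182) were both lower in cell groups, by -1.59 and -1.07. The second was the most abundant member, with 1130 CPM under rotifers, 1415 in control and 1275 in low nitrogen in cell groups, against 2381, 1672 and 669 CPM in single cells.

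Members were more frequent among genes of low expression. Below a mean of 5 CPM over the libraries 9.33% of the kept genes were members, between 5 and 50 CPM 4.03%, and from 50 CPM upwards 2.93%. The median of the mean level was 6.81 CPM for members higher and 11.4 CPM for members lower in cell groups, against 16.6 CPM for all genes kept. The median gene length was 5814 and 3714 bases, against 4722 bases for all genes kept, and whether length has a part in the members was not tested. The counting interval of the rotifer fold did not reach 1 for 625 of 670 members. Its lower bound was at or above 1.5-fold for 422 and at or above 2-fold for 141. Members were chosen on these same counts, and the shares over all genes kept were not computed. These numbers therefore describe the precision of the counts and are no test of the members. In 7 members 1 rotifer library had 0 counts. Of these Cre05.g235850 had 15, 6 and 14 counts in cell groups under rotifers, in control and in low nitrogen, against 0, 2765 and 24 counts in single cells. With the single cell rotifer library set at a floor of 3 counts, cell groups were 5.37-fold higher under rotifers. This value is a substitution and no lower bound. With the 0 counts of these 7 genes set at that floor, the medians of the members remained 1.26 and -1.20.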

How the data were processed

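RNA was pooled by treatment, and each of the 6 libraries is 1 sample. After FastQC filtering the authors aligned the reads by hisat2 against the C. reinhardtii genome (version 5.0), and HTSeq gave the deposited raw counts per gene, which are whole numbers. Tool versions and the strand setting are not given in the sources used here. The authors also deposited log2 values normalized with DESeq2, used here as an alternative, and a table of their own fold changes and adjusted p-values, which was not used.

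A gene was kept with 15 or more counts over the 6 libraries and 1.3 CPM or more, equal to 10 counts at the median library size, in 3 or more of them, which left 14136 of 17741. TMM factors came from edgeR 4.0.16 and size factors from DESeq2 1.42.0 in R 4.3.3. Library totals lay between 5453218 and 9054895 counts. Differences are on the log2(CPM + 0.5) scale, which understates those of low genes. The calling rule and the intervals (scipy) were tested on simulated counts. These held counting error only, with 4-fold changes in the cell group rotifer library at genes of high counts. The simulation therefore does not show how the rule performs for smaller differences or for low genes. Positions are those of RefSeq assembly Chlamydomonas_reinhardtii_v5.5, whose version the gene identifiers carry. The 32 positions of amino acid changes that the study lists as shared within a morphotype fell inside their genes.

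Members and lists were chosen with earlier results of these data known. The rule for named genes required a symbol or product, which no gene had. Genes were therefore named without that condition, after their values were seen: the 15 strong members, the 4 reversed genes ranked first by the smallest of their 3 differences, the members at the 2-fold limit, and abundant, adjacent or variant-bearing genes. Alternatives covered the scaling, the pseudocount, the filter, the deposited normalized values, the limits of the rule and the pairs compared.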

Additional observations from a re-analysis of the deposited data

Results flagged for a closer look

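The 14 members reversed in both other pairs differed between cell groups and single cells by at least 2-fold in 1 direction under rotifers and by at least 2-fold in the other direction in control and in low nitrogen. With 1 library on each side these differences between treatments were not tested. Cre08.g365150 had a log2 difference of 2.23 under rotifers, against -6.89 in control and -2.10 in low nitrogen, and Cre08.g365100 had 1.5, against -6.96 and -1.43. Cre09.g397850 had -1.79, against 1.55 and 1.31. Cre02.g084176 had -1.76, against 1.48 and 2.47, and Cre07.g343050 had -1.35, against 1.79 and 2.66. Cre14.g623650 had 1.02, against -2.28 and -1.41, and Cre12.g507850 had 1.01, against -3.01 and -1.05. Of the others, Cre16.g679151 (-1.76) and Cre02.g099400 (-1.3) were lower in cell groups under rotifers. Cre16.g648950 (1.38), Cre05.g238450 (1.24), Cre01.g039950 (1.21), Cre01.g035950 (1.1) and Cre02.g143347 (1.1) were higher.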

How the results depend on the processing

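The 3671 genes at least 2-fold different under rotifers numbered between 2719 and 4095 under another scaling, a pseudocount of 2 CPM or no filter beyond 15 counts, and 1084 with the authors' normalized log values, whose differences between libraries are smaller. The 670 members numbered 661 with DESeq2 size factors (606 of them shared), 669 with library totals (515 shared) and 805 without the filter. They numbered 446 with a pseudocount of 2 CPM, 132 with the authors' normalized values (49 shared), 47 at 4-fold, 180 with no same-direction difference allowed, 1263 with a same-direction limit of 2-fold, 1669 against the control pair alone, 1107 against the low-nitrogen pair alone, and 422 with a counting bound of at least 1.5-fold. Library totals in place of TMM moved the median of all genes from 0.045 to 0.139 in the rotifer pair and from -0.012 to -0.173 in the control pair. All 27 genes listed by the naming rules or looked up kept their direction under the 4 alternatives for scaling, pseudocount and normalized values. Most were chosen for their differences in the same counts, so the kept direction is no independent check. With the authors' normalized values 22 of the 27 lay outside their counting interval. The reversed genes Cre08.g365150 (0.943), Cre08.g365100 (0.733), Cre07.g343050 (-0.816) and Cre02.g084176 (-0.69) were then under 2-fold. With the authors' normalized values Cre09.g410950 was at -1.57 and Cre09.g414416 at 2.29. No paired analysis was possible because each group has 1 library, and for the same reason no library could be left out within a group. The depth limits genes near the floor of 3 counts. Where both libraries of a pair lay near it, a difference could be missed. With only 1 library there the fold was imprecise, with an interval of 15.2 to 3480 for Cre09.g414416.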
